A study of Mus musculus with 6 samples.

Results

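Integrins are cell surface receptors made of an alpha and a beta chain, and laminins are basement membrane proteins made of an alpha, a beta and a gamma chain. The genes described here are the protein-coding rows of the deposited table whose symbol begins Itga or Itgb followed by a number or small letter, or is Lama, Lamb or Lamc with a single digit, leaving out the Itgb1bp genes. This gave 40 genes of 46452 in the table (22186 of them protein-coding). They hold 18 integrin alpha, 9 integrin beta, 5 laminin alpha, 3 laminin beta and 3 laminin gamma chains. The pattern also takes in 2 genes that encode no chain, Itgbl1 (integrin beta-like) and Itgb3bp (a binding partner of the β3 chain), which are given apart.

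RNA was taken from hearts of mice aged 10 days, 3 labelled Nat10 flox/flox (loxP-flanked alleles of Nat10, the gene of an RNA acetyltransferase) and 3 labelled Nat10-CKO (a conditional knockout). The labels call them independent biological replicates and name neither the Cre driver nor the deleted exons, and no group is labelled as carrying Cre without floxed alleles. Heart tissue was used, so the libraries can mix muscle, vessel, connective tissue and blood cells, and fewer cells of a type and less RNA per cell cannot be told apart. The question of the series is the role of NAT10 in heart development.

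An integrin's alpha chain largely sets which matrix protein it binds. Chains α5, αv, α8 and αIIb bind the Arg-Gly-Asp motif of fibronectin, vitronectin and related proteins, α3, α6 and α7 bind laminins, α1, α2, α10 and α11 bind collagens, and β2 and β7 pair with alpha chains of leukocytes. Laminin trimers polymerise on the cell surface and, with nidogen, collagen IV and perlecan, form the sheet around each heart muscle cell and under the endothelium. In heart muscle the main receptors for it are integrin α7β1 and dystroglycan, and laminins with the α2 chain surround muscle cells while those with α4 and α5 lie around vessels.

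Reads assigned to genes numbered from 31155521 to 38051266 in the 6 libraries, and genes of the mitochondrial chromosome took 16.6% to 18.3% of them in the flox/flox libraries against 7.56% to 9.26% in the others. Levels are in FPKM, read pairs per kilobase of gene scaled by a factor for each library. Nat10 itself stood at 3.75, 4.18 and 4.71 FPKM in the flox/flox libraries and at 8.28, 8.66 and 10.2 FPKM in those labelled Nat10-CKO (limma adjusted p = 0.00142). The targeted gene goes against the label, and whether its reads lie outside the deleted part was not tested, so the second group is called the CKO-labelled libraries throughout and each direction refers to that label. A separate marker check set some libraries apart. Nerve and Schwann cell markers summed to 271 FPKM in flox/flox replicate 1 and to 24.1 to 39.4 FPKM in the other libraries. Lymphocyte markers summed to 21.0 FPKM in flox/flox replicate 2 and to 2.72 to 5.33 FPKM elsewhere. Neutrophil markers summed to 29.3 FPKM in CKO-labelled replicate 1, 22.2 FPKM in flox/flox replicate 2 and 3.88 to 11.4 FPKM elsewhere. Epicardial and mesothelial markers summed to 20.6 FPKM in CKO-labelled replicate 1 and 7.79 to 10.9 FPKM elsewhere. Heart muscle markers were present in all 6 libraries (8 genes, summing to 14823 to 17041 FPKM in the flox/flox libraries and 11485 to 18582 FPKM in the CKO-labelled ones).

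Of the 40 genes, 23 had a mean of at least 1 FPKM and were tested with limma on log2(FPKM + 1), Benjamini-Hochberg adjustment running over all 11996 genes tested. In the CKO-labelled libraries 6 were higher (among them Itga5, Itgbl1, Itga3, Lamb2 and Itgb5) and 4 were lower (Itgb6, Itga6, Lama4 and Lamb1), while 13 did not pass. Over all genes tested 24.4% were called higher and 16% lower (40.5% in either direction), so the share of these genes that was called is close to the background. The 23 genes had a median log2 difference of 0.14 and all genes tested one of 0.03. In the 6 higher genes every CKO-labelled library lay above every flox/flox library, as in 31.5% of all genes tested, and in the 4 lower genes every one lay below, as in 24.4%. Groups that did not overlap were thus found for 10 of 23 of these genes and for 55.9% of all.

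**Figure D1:**
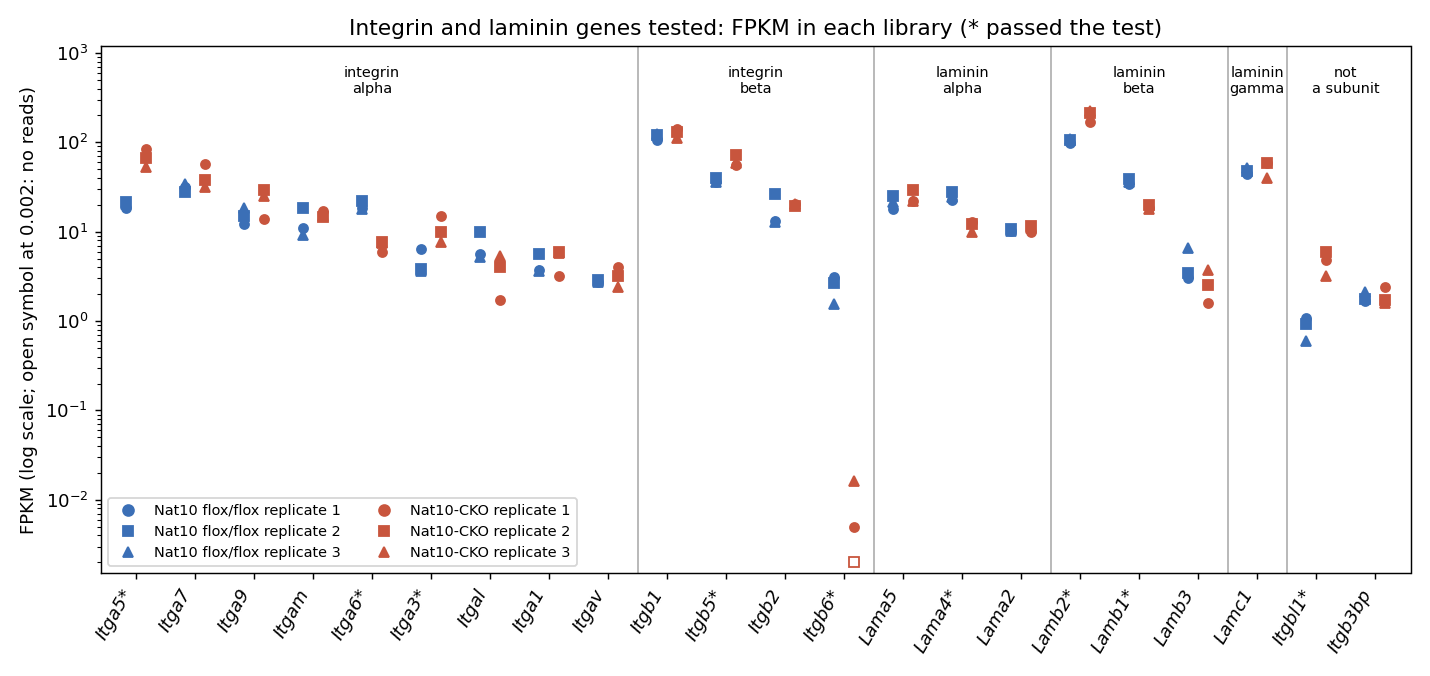
FPKM (log axis) of the tested genes described here, with 3 flox/flox libraries in blue and 3 CKO-labelled libraries in red, a symbol shape per replicate and an open symbol for no reads. Itgb6 lies between 1.55 and 3.09 FPKM in blue and at or under 0.0161 FPKM in red, and Itga5 and Lamb2 show gaps in the other direction.

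Receptors of the Arg-Gly-Asp motif were led by the fibronectin receptor chain Itga5 (gene ID 16402, chromosome 15, 103252713 to 103275218, minus strand, GRCm39). It stood at 18.5, 21.3 and 20.4 FPKM in the flox/flox libraries and at 84.5, 67.2 and 53.6 FPKM in the CKO-labelled ones. Every CKO-labelled value lay above every flox/flox value, with means of 20.1 ± 1.44 and 68.4 ± 15.5 FPKM (SD, n = 3 per group). This is 3.41-fold, a log2 fold change of 1.70 ± 0.18 (SE) with a limma adjusted p of 0.000764.

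Its partner Itgb1, the beta chain shared by most heart integrins and the highest integrin gene per length, was 107, 122 and 125 FPKM against 142, 131 and 112 FPKM. The groups overlapped and the limma test gave no call (log2 difference 0.12, SE 0.14, adjusted p = 0.521), with the sign of the difference turning under quantile normalization and with mitochondrial genes left out. Fibronectin itself, Fn1 (chosen after its values were seen), was 17.8, 19.9 and 19.0 FPKM in the flox/flox libraries, 32.0, 18.9 and 10.2 FPKM in the others, and was not called (limma adjusted p = 0.954). Its CKO-labelled values ran from below to above the flox/flox range.

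The αv chain Itgav, which pairs with β1, β3, β5, β6 and β8, was low at 2.72 to 2.90 FPKM in the flox/flox libraries and 2.38 to 4.03 FPKM in the CKO-labelled ones, and did not pass (adjusted p = 0.518). Among its beta partners, Itgb5 (gene ID 16419, chromosome 16, 33650035 to 33769708, plus strand), a vitronectin receptor chain, rose from 35.6, 40.1 and 36.3 FPKM to 55.6, 71.7 and 58.1 FPKM. Its groups did not overlap and differed 1.66-fold (log2 fold change 0.71 ± 0.13 SE, limma adjusted p = 0.0064). Vtn, the gene of vitronectin, moved the other way, from 21.7 ± 4.03 to 4.62 ± 1.35 FPKM (SD, n = 3 per group), a fall of 4.69-fold with a limma adjusted p of 0.00091.

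Itgb6 (gene ID 16420, chromosome 2, 60428636 to 60553005, minus strand), the beta chain of αvβ6, an activator of latent TGF-beta best known from epithelia, was all but absent from the CKO-labelled libraries. It had 688, 465 and 301 reads (3.09, 2.68 and 1.55 FPKM) in the flox/flox libraries and 1, 0 and 3 reads (0.00496, 0 and 0.0161 FPKM) in the CKO-labelled ones. Pooled over each group and scaled by library, the ratio was 356 in favour of flox/flox, with a 95% counting interval of 139 to 1307 that covers counting error only. It was 239 without CKO-labelled replicate 2, 964 without replicate 3 (which leaves 1 read) and 301 to 420 without any 1 flox/flox library. The limma log2 fold change of -1.74 ± 0.20 (SE, adjusted p = 0.00114) is compressed by the pseudocount of 1. Itgb6 passed the filter of a mean of at least 1 FPKM only through the flox/flox libraries. Its mean was 1.22 FPKM over all libraries, 2.44 FPKM in flox/flox and 0.00703 FPKM in the CKO-labelled ones.

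Epithelial markers (7 genes) summed to 0.406 to 6.09 FPKM in the flox/flox libraries and 10.2 to 24.3 FPKM in the CKO-labelled ones, the opposite order to Itgb6. Their 2 tested genes, Krt8 and Krt18, were higher in the CKO-labelled libraries, Epcam, Krt5 and Krt14 were at or under 0.286 FPKM in all 6 libraries, and Cdh1 was 4.57 FPKM in flox/flox replicate 1 and at or under 0.271 FPKM elsewhere. Their part in the level of Itgb6 was not tested. Ltbp1, which holds latent TGF-beta in the matrix where this integrin acts on it, fell from 10.3 ± 0.782 to 4.45 ± 0.233 FPKM (SD, n = 3 per group; limma adjusted p = 0.00056), and Tgfb1 (chosen after its values were seen) did not pass (limma adjusted p = 0.812).

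The start regions of Itgb6 are shown because it had the largest ratio of all the genes described. RefSeq gives 2 starts for it, at chr2:60552898-60553197 and, inside the gene, at chr2:60503988-60504287 (minus strand, GRCm39, placed by exact match of the GRCm38.p6 windows, each running from 250 bases before the start to 50 after it). Capitals mark a CArG box, the binding motif of serum response factor, found 50 bases before the inner start and not in the outer window.
Itgb6 outer start: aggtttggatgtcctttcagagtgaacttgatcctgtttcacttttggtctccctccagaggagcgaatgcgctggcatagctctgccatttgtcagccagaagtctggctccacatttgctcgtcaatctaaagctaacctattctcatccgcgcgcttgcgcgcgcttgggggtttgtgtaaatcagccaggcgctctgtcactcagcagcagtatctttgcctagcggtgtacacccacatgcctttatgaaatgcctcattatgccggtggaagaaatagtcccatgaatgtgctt
Itgb6 inner start: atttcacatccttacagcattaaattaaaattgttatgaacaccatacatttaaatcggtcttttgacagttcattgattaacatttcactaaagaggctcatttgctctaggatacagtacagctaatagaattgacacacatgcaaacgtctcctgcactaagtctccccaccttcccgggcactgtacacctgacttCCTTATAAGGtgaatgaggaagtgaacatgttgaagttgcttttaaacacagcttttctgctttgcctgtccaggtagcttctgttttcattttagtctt

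Windows were found in that table for 26 of the 40 genes (29 windows). They were searched on both strands for the CArG box, for the AP-1 motif TGANTCA and for the TEAD motif GGAATG, none of which overlapped another in the windows shown. A CArG box was present in 2 of the 29 windows (Itgb6 and Lama2) and in 1.63% of 32851 windows of all genes. TGANTCA was present in 3 of 29 (Itga3, Itga9 and Itgax) and in 7.81% of all, and GGAATG in 3 of 29 (Itga10, Itgb1 and Lamb3) and in 14.7% of all. The windows of Itga5, Itgb5, Lamb1, Lamb2 and Itgbl1 held none of the 3.

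The remaining chains of this class were under 1 FPKM on average and were not tested. Itga8, the receptor chain for nephronectin, was 1.03, 1.17 and 0.868 FPKM in the flox/flox libraries against 0.174, 0.260 and 0.207 FPKM in those labelled Nat10-CKO, so the groups did not overlap and differed 4.79-fold. Of the 17 untested genes it alone passed when every gene with a read was tested (limma adjusted p = 0.00587). Itgb3, which with Itga2b forms the platelet fibrinogen receptor, was 0.709, 0.503 and 0.642 FPKM against 2.15, 0.691 and 0.489 FPKM. Its ratio of means was 1.79, and 0.954 without CKO-labelled replicate 1. Itgb8 was 1.26 FPKM in flox/flox replicate 1, the library with the nerve markers, and 0.0992 to 0.174 FPKM in the other 5 libraries, so its ratio of 0.246 became 0.923 without that library. The part of the nerve markers' cells in its level was not tested.

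Among the laminin receptors the 3 main alpha chains did not move together. Itga6 (gene ID 16403, chromosome 2, 71617236 to 71688771, plus strand), a laminin receptor chain prominent in endothelium, fell from 18.2, 21.8 and 18.0 FPKM to 5.97, 7.62 and 7.50 FPKM. The groups did not overlap, the means of 19.4 ± 2.12 and 7.03 ± 0.920 FPKM (SD, n = 3 per group) differed 2.75-fold, and the log2 fold change was -1.34 ± 0.13 (SE, limma adjusted p = 0.000621).

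Itga7, the laminin receptor chain of muscle, was 31.9, 28.2 and 33.9 FPKM against 57.8, 38.2 and 31.4 FPKM. Its groups overlapped, with CKO-labelled replicate 1 the highest library, and limma made no call (log2 difference 0.39, SE 0.22, adjusted p = 0.208). Itga3 (gene ID 16400), a receptor chain for laminins with the α3 or α5 chain, rose from 6.39, 3.80 and 3.65 FPKM to 15.0, 9.86 and 7.70 FPKM, 2.35-fold (log2 fold change 1.07 ± 0.27 SE, limma adjusted p = 0.0206).

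Within each group replicate 1 was the highest library for Itga3, and its groups did not overlap. Its call was lost without flox/flox replicate 2 (limma adjusted p = 0.0718), flox/flox replicate 3 (0.0717) or CKO-labelled replicate 2 (0.054), with no filter (0.061) and with mitochondrial genes left out (0.051). Markers of epicardium and mesothelium summed to 20.6 FPKM in CKO-labelled replicate 1 and to 7.79 to 10.9 FPKM in the other libraries, and their part in the level of Itga3 was not tested. Itgb4, the beta chain that pairs with α6 in hemidesmosomes, stayed under 1 FPKM in all 6 libraries (0.303 to 0.932 FPKM).

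Collagen-binding chains showed no call. Itga1, the one tested, was 3.76, 5.62 and 3.66 FPKM in the flox/flox libraries against 3.20, 5.95 and 5.78 FPKM in those labelled Nat10-CKO (limma adjusted p = 0.655), and the gene Pelo lies inside it on the same strand, so its level is uncertain where the genes share reads. Itga11, a fibroblast collagen receptor chain, was 0.682 to 0.814 FPKM in the flox/flox libraries and 0.849 to 1.54 FPKM in the CKO-labelled ones, with no overlap. Itga10 ranged from 0.273 to 0.800 FPKM over the 6 libraries and Itga2 from 0.0662 to 0.320 FPKM.

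Integrins of blood cells were not called in either direction, 3 of 11 being tested, where 40.5% of all genes tested were called. With 3 genes the count is too small to set against that share. Itgb2, the common beta chain of leukocyte integrins, was 13.3, 26.2 and 12.9 FPKM against 20.5, 19.6 and 20.3 FPKM. The flox/flox range, with replicate 2 at its top, enclosed all 3 CKO-labelled values. Its partner Itgam, the macrophage and neutrophil chain, was 10.9, 18.5 and 9.29 FPKM against 17.1, 14.5 and 15.1 FPKM. Without flox/flox replicate 2 both passed as higher (limma log2 fold change 0.58 and adjusted p = 0.0164 for Itgb2, 0.58 and 0.0293 for Itgam). With all libraries neither did (adjusted p = 0.439 and 0.333).

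The ratio of Itgam to Itgb2 was alike in all 6 libraries, at 0.705 to 0.835. Itgal, the lymphocyte partner of Itgb2, was 5.67, 9.96 and 5.25 FPKM in the flox/flox libraries, 1.74, 3.98 and 5.29 FPKM in the others, and was not called (log2 difference -0.80, SE 0.35, limma adjusted p = 0.11). The ratio of Itgam to Itgal was thus 1.77 to 1.92 in the flox/flox libraries and 9.83, 3.64 and 2.85 in the CKO-labelled ones. Macrophage and monocyte markers (11 tested, 0 called, against 40.5% of all genes tested) summed to 698 to 1042 FPKM in the flox/flox libraries and 884 to 1091 FPKM in the CKO-labelled ones.

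Flox/flox replicate 2 was also the highest library for Itgax (2.16 FPKM, 0.335 to 0.571 FPKM elsewhere), Itgae (0.729 FPKM, 0.0666 to 0.311 FPKM elsewhere), Itga4 (1.09 FPKM, 0.338 to 0.547 FPKM elsewhere) and Itgb7 (1.68 FPKM, 0.366 to 1.18 FPKM elsewhere). These chains mark dendritic cells and lymphocytes, and this is the library with 21.0 FPKM of lymphocyte markers, whose part in these levels was not tested. Without it the ratio of means went from 0.390 to 0.810 for Itgax, from 0.239 to 0.387 for Itgae and from 0.761 to 1.35 for Itgb7, which also moved to 0.482 without CKO-labelled replicate 1. The gene Haspin lies inside Itgae on the opposite strand (44.2 reads on average, 35.7 for Itgae), so the level of Itgae is uncertain. Itga9, which binds tenascin and is found in muscle and lymphatic vessels as well as leukocytes, was 12.3, 14.8 and 18.6 FPKM against 13.997, 29.4 and 25.1 FPKM. It did not pass (limma adjusted p = 0.192), and passed as higher without CKO-labelled replicate 1 (log2 fold change 0.81, adjusted p = 0.0158).

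The last of the blood cell chains were low, Itga2b having 49 to 152 reads per library. Itga2b ranged from 0.434 to 1.20 FPKM, and platelet markers summed to 13.3 to 23.4 FPKM. No call was made among the 2 platelet markers tested, where 40.5% of all genes tested were called. Itgb2l had 1 read in 1 flox/flox library and 0 reads in the other 5. Itgad had 10 to 70 reads per library and overlaps, on the opposite strand, the abundant muscle gene Cox6a2 (24101 reads on average), so its level is uncertain.

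Laminin beta chains moved in opposite directions. Lamb2 (gene ID 16779, chromosome 9, 108357046 to 108367729, plus strand), the beta chain of muscle and vascular basement membranes and the highest laminin gene per length, rose from 97.2, 107 and 110 FPKM to 167, 211 and 226 FPKM. Lamb1 (gene ID 16777, chromosome 12, 31315230 to 31379643, plus strand), the beta chain more widely used in the embryo, fell from 34.5, 38.4 and 35.7 FPKM to 18.5, 19.7 and 17.7 FPKM. Neither gene's groups overlapped. Lamb2 differed 1.92-fold (log2 fold change 0.93 ± 0.15 SE, limma adjusted p = 0.00358), and Lamb1 1.94-fold (log2 fold change -0.92 ± 0.10 SE, limma adjusted p = 0.000861).

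The ratio of Lamb2 to Lamb1 was 2.82, 2.78 and 3.09 in the flox/flox libraries and 9.03, 10.7 and 12.7 in the CKO-labelled ones. Within a library this ratio does not depend on the scaling of that library, though it does depend on the 2 gene lengths used. The start windows of the 2 genes (RefSeq, GRCm39 positions as above) are shown because they moved apart. At chr9:108356811-108357110 the window of Lamb2 has 44.0% G or C, and at chr12:31315042-31315341 that of Lamb1 has 63.7%. Neither holds a searched motif, so neither carries capitals.
Lamb2: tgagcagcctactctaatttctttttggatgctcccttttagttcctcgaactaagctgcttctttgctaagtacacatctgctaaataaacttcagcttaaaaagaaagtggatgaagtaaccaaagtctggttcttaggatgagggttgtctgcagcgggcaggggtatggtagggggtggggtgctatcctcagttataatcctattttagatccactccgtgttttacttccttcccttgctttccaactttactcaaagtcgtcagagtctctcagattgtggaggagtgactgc
Lamb1: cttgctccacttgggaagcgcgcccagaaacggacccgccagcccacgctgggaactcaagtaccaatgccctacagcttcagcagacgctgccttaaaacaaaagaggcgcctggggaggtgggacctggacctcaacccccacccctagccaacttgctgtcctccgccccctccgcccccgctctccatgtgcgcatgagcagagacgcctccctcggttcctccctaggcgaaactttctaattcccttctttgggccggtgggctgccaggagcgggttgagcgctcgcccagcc

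Of the laminin alpha chains, Lama4 (gene ID 16775, chromosome 10, 38841511 to 38986184, plus strand), the chain of endothelial and pericyte laminins, fell from 22.8, 27.6 and 24.8 FPKM to 12.8, 12.2 and 9.93 FPKM. The groups did not overlap and differed 2.15-fold (log2 fold change -1.05 ± 0.13 SE, limma adjusted p = 0.00135). Lama2, the chain of the heart muscle cell's own basement membrane, was 10.2, 10.7 and 10.2 FPKM against 9.95, 11.6 and 10.9 FPKM. The groups overlapped, and the log2 difference of 0.05 (SE 0.09) was not called (limma adjusted p = 0.707). Lama5, a vascular chain, was 18.1, 25.3 and 21.5 FPKM in the flox/flox libraries, 22.1, 29.3 and 22.3 FPKM in the others, and was not called (limma adjusted p = 0.428). Lama3 lay between 0.101 and 0.405 FPKM, and Lama1 had 18, 4 and 1 reads in the flox/flox libraries and 0 in each CKO-labelled one.

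Of the gamma chains, Lamc1, which enters most laminin trimers, was 43.7, 47.7 and 52.2 FPKM against 59.2, 58.7 and 39.9 FPKM. The groups overlapped and the difference did not pass (limma adjusted p = 0.63). Lamc3 was 0.0531 to 0.136 FPKM in the flox/flox libraries and 0.167 to 0.228 FPKM in the CKO-labelled ones, too low to be tested.

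Lamb3, a beta chain best known from epithelia, was 3.03, 3.47 and 6.55 FPKM in the flox/flox libraries, 1.59, 2.56 and 3.70 FPKM in the others, and was not called (log2 difference -0.55, SE 0.30, limma adjusted p = 0.189). Lama3 was 0.204, 0.405 and 0.215 FPKM against 0.157, 0.101 and 0.136 FPKM.

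**Figure D2:**
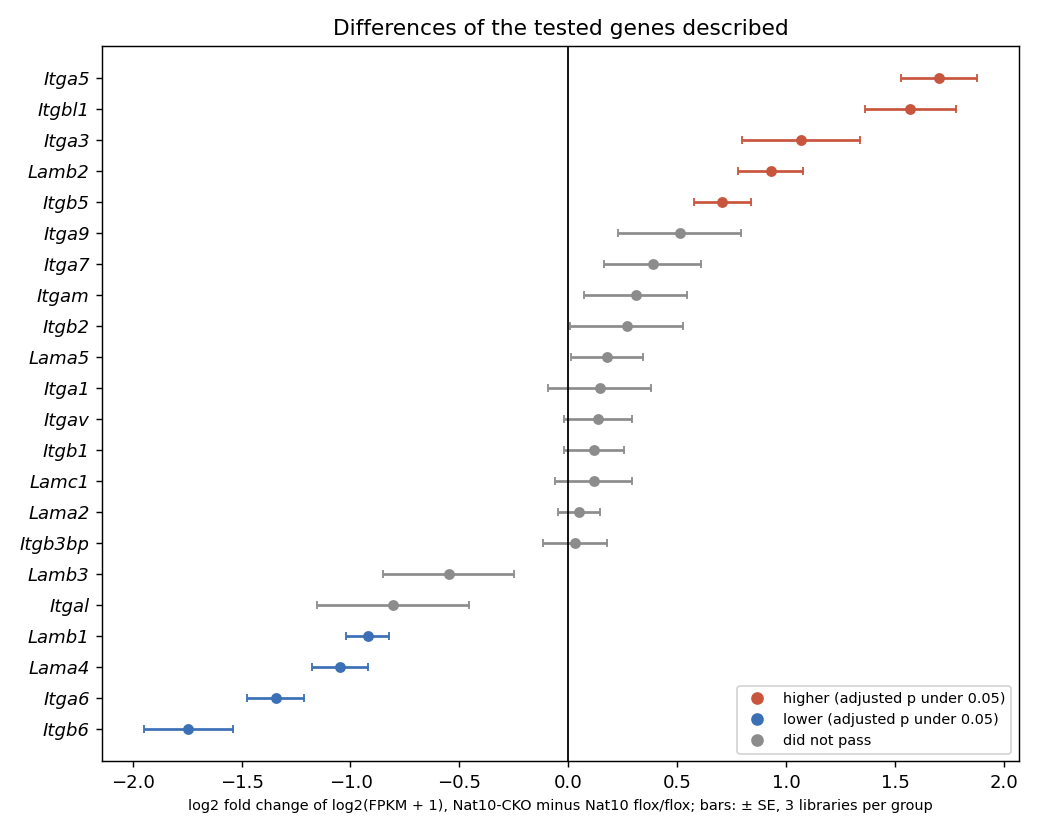
Log2 fold change of log2(FPKM + 1), CKO-labelled minus flox/flox, with its standard error (bars, 3 libraries per group) for the tested genes described here in order of size. Itga5 at 1.70 and Itgb6 at -1.74 are the ends, and the 13 genes in grey did not pass.

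Neither gene outside the chain families stands for an integrin. Itgbl1 (gene ID 223272), a secreted protein with repeats like those of beta chains, rose from 1.07, 0.938 and 0.602 FPKM to 4.87, 5.86 and 3.16 FPKM. This is 5.32-fold (log2 fold change 1.57 ± 0.21 SE, limma adjusted p = 0.0018). With a flox/flox mean of 0.871 FPKM, Itgbl1 passed the filter of a mean of at least 1 FPKM only through the CKO-labelled libraries. Itgb3bp, a kinetochore protein named for its binding to β3, was 1.60 to 2.43 FPKM in all 6 libraries and did not pass (adjusted p = 0.888).

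Set against the sum of their class in the same library, the chains changed in proportion as follows (a description with no test, since the chains that passed set most of it). Itga5 made up 16.3% ± 0.666 of integrin alpha FPKM in the flox/flox libraries and 37.1% ± 3.37 in the CKO-labelled ones (SD, n = 3 per group), and Itga6 15.7% ± 0.577 and 3.92% ± 0.960. The ratio of Itga5 to Itga6 was 1.01, 0.977 and 1.13 against 14.2, 8.82 and 7.15. Lamb2 made up 72.1% ± 0.238 and 90.4% ± 1.04 of laminin beta FPKM.

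Among laminin alpha chains Lama4 was the largest share in each flox/flox library (43.7% ± 0.659) and Lama5 in each CKO-labelled one (51.9% ± 3.01; SD, n = 3 per group). Lama5 had 37.6% ± 2.13 in the flox/flox libraries and Lama4 24.8% ± 3.15 in the CKO-labelled ones. The summed FPKM of integrin alpha chains was 115, 134 and 119 against 208, 184 and 158, and that of laminin alpha chains 51.4, 64.0 and 56.7 against 45.0, 53.1 and 43.2. Itgb1 remained the main beta chain, with 63.0% to 70.4% of integrin beta FPKM in the flox/flox libraries and 58.3% to 63.9% in the CKO-labelled ones.

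**Figure D3:**
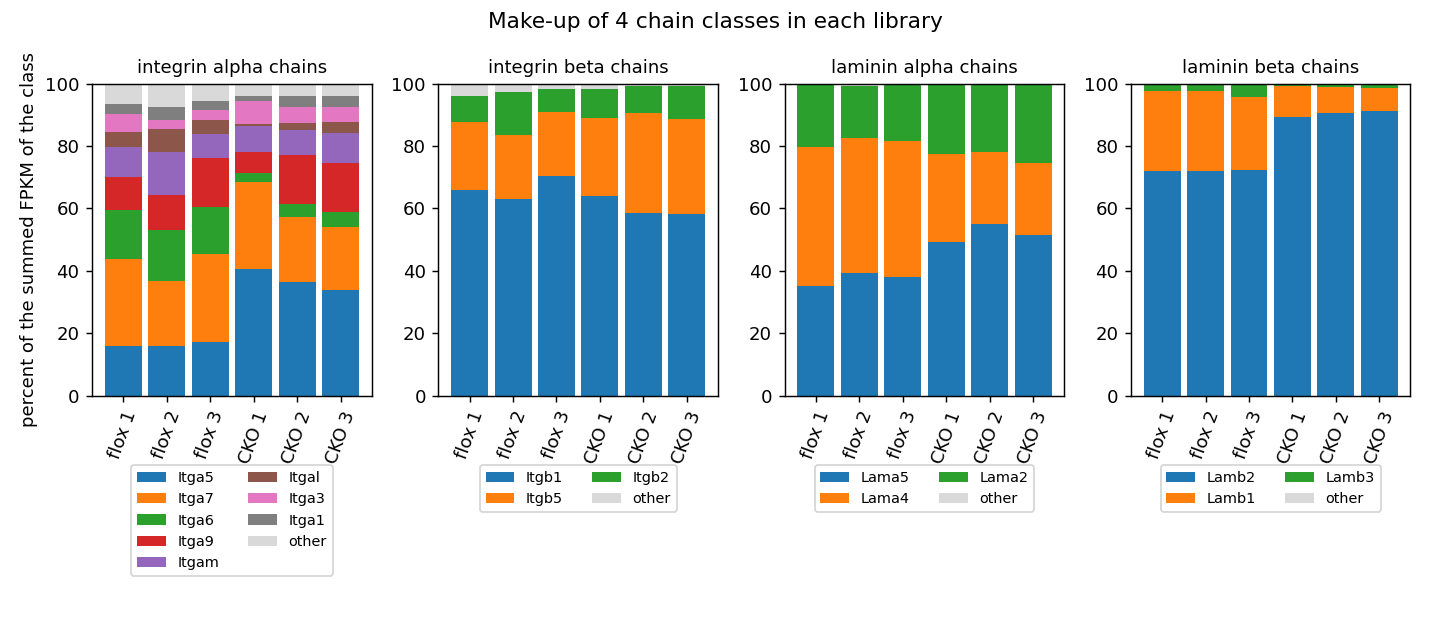
Percent of the summed FPKM of 4 chain classes (stacked bars to 100%) in the 3 flox/flox and 3 CKO-labelled libraries. Chains under 2% in all libraries are joined as other, together with Itgav (1.51% to 2.38%). Itga5 grows from 15.9% to 17.1% of alpha chains to 34.0% to 40.7%, and Lamb2 is 71.8% to 72.3% of laminin beta chains in the flox/flox libraries and 89.3% to 91.3% in the CKO-labelled ones.

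Endothelial markers were lower together with Itga6, Lama4 and Lamb1. All 8 tested markers were called lower (Pecam1, Cdh5, Tie1, Tek, Kdr, Emcn, Egfl7 and Erg), with a median log2 difference of -0.83. Over all genes tested 16% were lower, with a median of 0.03. The 8 markers summed to 339 to 403 FPKM in the flox/flox libraries and 197 to 208 FPKM in the CKO-labelled ones. Relative to the flox/flox mean, the CKO-labelled libraries held 30.8% to 39.4% of Itga6, 39.7% to 51.0% of Lama4 and 49.0% to 54.4% of Lamb1. The markers ranged from 26.3% to 28.9% for Kdr, a receptor of VEGF, to 66.9% to 83.7% for Pecam1, an adhesion molecule of endothelial junctions.

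Lama5, likewise a vascular chain, was not called, at 22.1 to 29.3 FPKM. Smooth muscle and pericyte markers summed to 327 to 376 FPKM and 182 to 241 FPKM (9 tested, 1 higher, 5 lower), and fibroblast markers to 648 to 776 FPKM and 778 to 1066 FPKM (8 tested, 1 lower). The shares were 11.1% higher and 55.6% lower for smooth muscle and pericyte markers and 12.5% lower for fibroblast markers. Over all genes tested 24.4% were higher and 16% lower. What part these markers' cell types had in the fall of the 3 chains was not tested.

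**Figure D4:**
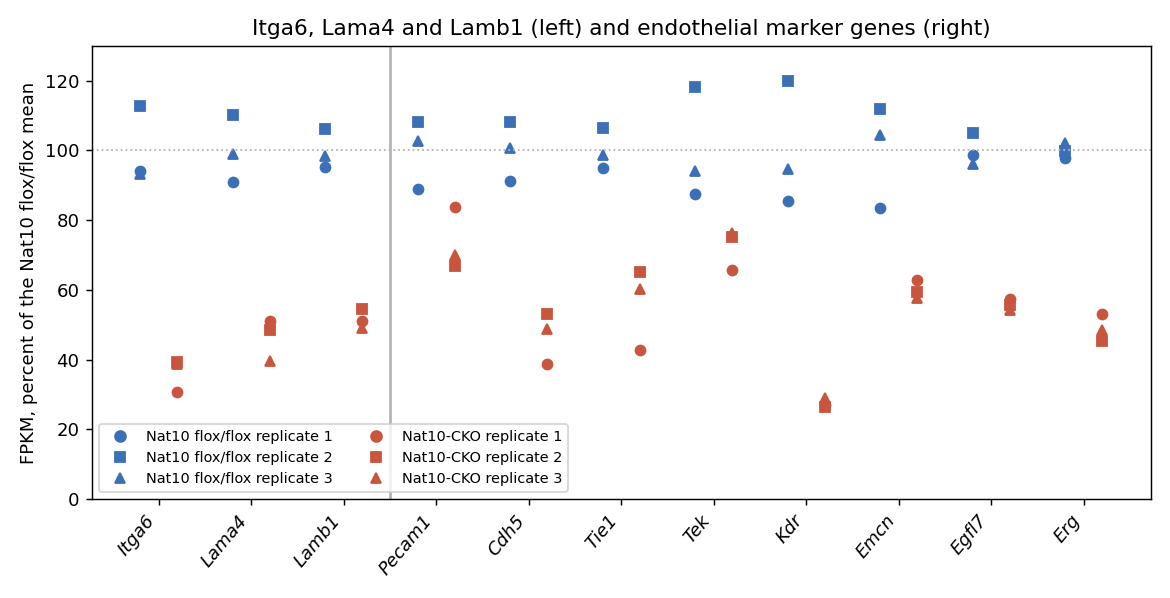
FPKM as a percent of the flox/flox mean (linear axis from 0) for Itga6, Lama4, Lamb1 and the 8 endothelial markers, a point per library. All CKO-labelled points lie under all flox/flox points for each gene, with Pecam1 the closest pair of groups.

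Other genes of the basement membrane were lower or did not pass. Of 18 tested partners of laminin 8 (44.4%) were lower and 0 higher, where 16% and 24.4% of all genes tested were, with -0.31 as their median log2 difference against 0.03 over all genes tested. The number lower was 5 without any 1 flox/flox library. Over all genes tested the number lower fell as well, from 1924 of 11996. It was 1485 of 11824 without flox/flox replicate 1, 1165 of 11967 without replicate 2 and 1162 of 11986 without replicate 3. Pxdn, a peroxidase that cross-links collagen IV, fell from 25.4 ± 1.38 to 7.14 ± 1.14 FPKM (SD, n = 3 per group) and Papln, a papilin proteoglycan, from 6.65 ± 0.858 to 1.03 ± 0.677 FPKM. Nid2, a nidogen that ties laminin to collagen IV, fell 1.69-fold and Ntn4, a netrin that binds laminin gamma chains, 2.20-fold. The main collagen IV chains Col4a1 and Col4a2 and the perlecan gene Hspg2 (chosen after their values were seen) did not pass, at limma adjusted p of 0.861, 0.503 and 0.492.

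Genes of the adhesion complex inside the cell, which couples beta chains to actin, were higher for 21 of 49 and lower for 4 (42.9% and 8.16%, against 24.4% and 16% over all genes tested). With mitochondrial genes left out the counts were 16 and 6. That scaling gave 2113 higher and 2954 lower of 12013 genes tested, against 2932 and 1924 of 11996 in the main test. It moved the median log2 fold change of all genes from 0.03 to -0.12. Sorbs2, an actin-linked adaptor of the Z-disc, rose from 22.5, 26.3 and 28.4 FPKM to 210, 178 and 145 FPKM. Enah, an actin polymerase of focal adhesions and intercalated discs, rose 5.88-fold, Sorbs3, the vinculin-binding vinexin, 4.66-fold, and Flnc, muscle filamin, 11.4-fold.

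Talin activates integrins by binding the tails of beta chains, and its 2 genes differed (chosen after their values were seen). Tln1 rose from 35.7 ± 3.95 to 85.1 ± 6.69 FPKM, and Tln2, the muscle form, fell from 9.18 ± 0.513 to 7.05 ± 0.577 FPKM (SD, n = 3 per group; limma adjusted p = 0.000705 and 0.032). The partners of the β1 tail, chosen in the same way, differed too: Itgb1bp1, the inhibitor ICAP1, rose 2.19-fold, and Itgb1bp2, the muscle protein melusin, fell 4.04-fold, from 7.00, 8.38 and 9.05 FPKM to 0.865, 2.50 and 2.69 FPKM. Ilk, a kinase-like scaffold that binds the same tail, was 46.3, 51.1 and 50.2 FPKM in the flox/flox libraries, 83.9, 52.3 and 37.5 FPKM in the others, and was not called (limma adjusted p = 0.677).

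**Figure D5:**
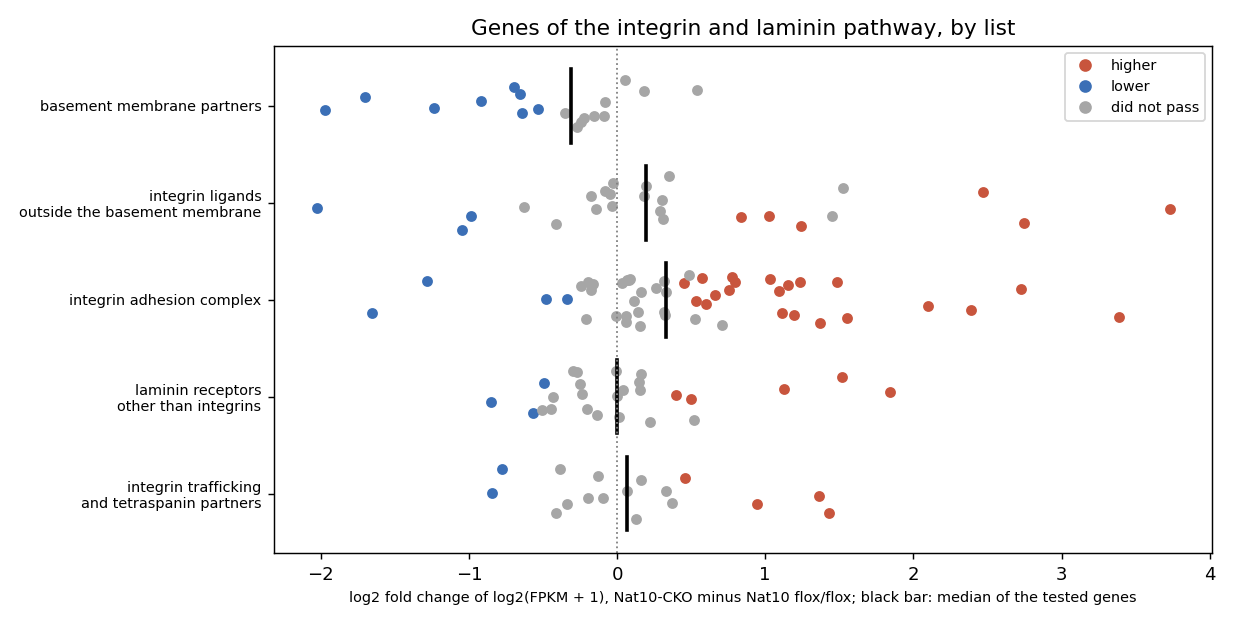
Log2 fold change of log2(FPKM + 1) of each tested gene in 5 lists of pathway genes, a point per gene (vertical spread is for legibility), with the median of the list as a black bar. The basement membrane list has its median at -0.31 and the adhesion complex list at 0.33.

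Ligands of integrins outside the basement membrane were higher for 6 of 25 and lower for 3. These shares, 24.0% and 12.0%, are near the 24.4% and 16% of all genes tested. Ccn2, a matricellular ligand of several integrins, was 21.3, 23.5 and 45.7 FPKM against 663, 293 and 303 FPKM (limma adjusted p = 0.000896). Thbs1, thrombospondin, rose 13.3-fold, or 8.84-fold without CKO-labelled replicate 1. Edil3 and Cdh1, a ligand of αv integrins and one of the αE chain, were at 2.87 and 4.57 FPKM in flox/flox replicate 1 and at or under 0.271 FPKM in the other 5 libraries (chosen after their values were seen).

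Receptors of laminin other than integrins were higher for 5 of 26 and lower for 3 (19.2% and 11.5%, under the 24.4% and 16% of all genes tested). The number lower ranged from 1 to 9 over the alternatives tried. With no filter it was 1, where 1856 of 27977 genes tested were lower. With mitochondrial genes left out it was 9, where 2954 of 12013 were. Dag1, dystroglycan, was 78.2, 89.5 and 92.9 FPKM in the flox/flox libraries, 71.1, 73.0 and 73.9 FPKM in the others, and was not called (limma adjusted p = 0.117), with no overlap between the groups (chosen after its values were seen). Sntb1, a syntrophin of the dystrophin complex, rose 3.64-fold, while Bcam, a receptor of the laminin α5 chain, fell 1.82-fold from 142 ± 17.3 to 78.0 ± 9.58 FPKM (SD, n = 3 per group).

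Tetraspanins and other genes of integrin traffic were higher for 4 of 17 and lower for 2 (23.5% and 11.8%, near the 24.4% and 16% of all genes tested). Cd63, a tetraspanin of late endosomes, rose from 61.5 ± 4.78 to 162 ± 39.8 FPKM and Tspan4 from 12.3 ± 1.03 to 25.1 ± 6.04 FPKM, while Tspan3 fell from 96.5 ± 7.01 to 56.0 ± 2.87 FPKM (SD, n = 3 per group). Cd151, the tetraspanin that binds laminin-binding integrins directly, was 87.3, 85.5 and 90.0 FPKM in the flox/flox libraries, 147, 111 and 90.0 FPKM in the others, and was not called (limma adjusted p = 0.154; chosen after its values were seen). The other genes called higher were Slc3a2, the heavy chain of an amino acid transporter that binds β1 tails, and Snx17, a sorting nexin that recycles β1.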

How the data were processed

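The deposited table holds 1 FPKM value per gene and library for 6 libraries. Per the labels' protocols, poly-A RNA went into directional libraries sequenced in pairs, and per the series' design text the authors aligned them to GRCm39 with HISAT2 2.2.1 and counted with featureCounts 2.0.6. CASAVA and DESeq2 1.42.0 are further tools that the submitters' processing notes list. The strand setting and the definition of gene length are not given in the sources used here. Multiplied by gene length, 100% of the values were whole multiples of 1 read (tolerance 0.01 read), which gave the reads quoted.

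Groups were compared with limma 3.58.1 (R 4.3.3, lmFit, eBayes with trend, two-sided) on log2(FPKM + 1) over 11996 genes with a mean of at least 1 FPKM, with a Benjamini-Hochberg adjusted p under 0.05 as the threshold. Folds are ratios of mean FPKM. The test was tried on reads simulated with the same dispersion of 0.0135 for every gene. That setting is simpler than the data, so no conclusion is drawn from it here. Voom on the recovered reads called 4890 genes, the main test 4856. The genes described, the 5 pathway lists, the marker lists and the alternatives were chosen with earlier results of these data known. The rule for named genes took all the integrin and laminin genes (those called, the most abundant and the main heart chains in full, others by range) and, of each pathway list, the 4 with the smallest adjusted p. Some of these genes enter the counts but are not reported here by name. Other lists gave these marker sums: 6.56 to 22.2 FPKM against 3.88 to 29.3 FPKM for neutrophils and 118 to 182 FPKM against 117 to 133 FPKM for all leukocytes. No call was made among the 4 neutrophil and 6 leukocyte markers tested, where 40.5% of all genes tested were called. Promoter windows are RefSeq's. Matplotlib 3.10.9 under Python 3.11.15 made the plots. Intervals cover counting error only.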

Additional observations from a re-analysis of the deposited data

How the results depend on the processing

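The counts of 6 higher and 4 lower integrin and laminin genes stayed within 5 to 7 and 3 to 5 over 17 alternatives (pseudocount, filter, scaling, trend, voom, replicate block and libraries left out). Over all genes tested the number higher ran from 2113 of 12013 (mitochondrial genes left out) to 3104 of 12011 (without Nat10-CKO replicate 1). With no filter 5 of 40 members were higher, where 2541 of 27977 genes were. At a mean of at least 5 FPKM 5 of 17 members were, where 2305 of 7224 genes were. Of the 10 called genes, 9 passed under each alternative in which they were tested, and Itga3 under 12 of 17. Of 383 single values, 355 kept direction and call, 5 lost the call, 5 gained it and 18 changed sign, all in genes that did not pass. The sign changes were, with mitochondrial genes left out, Itga1 (-0.0167), Itgav (-0.0068), Itgb1 (-0.0734), Lama5 (-0.0084), Lama2 (-0.128), Lamc1 (-0.0739) and Itgb3bp (-0.0932). Under quantile normalization they were Itgb1 (-0.0165), Lama5 (-0.0515), Lama2 (-0.0958) and Lamc1 (-0.135). Without Nat10-CKO replicate 1 they were Itgav (-0.0019) and Itgb3bp (-0.0913), without flox/flox replicate 1 Itgb3bp (-0.0152), and without both Itgav (-0.0092), Itgb1 (-0.0291), Lamc1 (-0.0426) and Itgb3bp (-0.136). With 1 library left out the values reached at most 0.285 for Itgav, 0.215 for Itgb1, 0.298 for Lamc1 and 0.109 for Itgb3bp. The cause was not tested.

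Lower members of the basement membrane list numbered 5 with no filter and 5 of 11 tested at a mean of at least 5 FPKM (5 to 8 with 1 library left out), and of the ligand list 5 without both replicates 1 (3 to 5). Those of the adhesion list numbered 1 with no filter (1 to 4), and of the traffic list 1 with no filter and 4 with mitochondrial genes left out (1 to 3). Laminin receptors other than integrins had 1 lower with no filter, 5 with protein-coding genes rescaled, 8 with quantiles equalised, 9 with mitochondrial genes left out and 5 under the replicate block (1 to 4). Over all genes tested the number lower was 1856 of 27977 with no filter and 1159 of 7224 at a mean of at least 5 FPKM. It was 2160 of 12010 with protein-coding genes rescaled, 2254 of 11996 with quantiles equalised and 2954 of 12013 with mitochondrial genes left out. The replicate block gave 1724 of 11996, the fit without both replicates 1 gave 1950 of 11823, and fits with 1 library left out gave 1162 to 1951. Same-numbered libraries did not deviate together (correlations 0.0649, 0.0373 and 0.105, and flox/flox replicate 2 correlated best with Nat10-CKO replicate 3), so the block is not taken as a pairing. It gave 4390 calls over all genes (4856 without it) and 6 higher and 5 lower members, Lamb3 among them (adjusted p = 0.0291 by limma). At under 1 FPKM on average, 17 of the 40 genes were not tested.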
